A study of Oikopleura dioica with 2 samples.

Results

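Among the transcripts that eggs of the tunicate Oikopleura dioica held at a high level, 179 were at least 16-fold lower in larvae. These 179 assembled components were chosen by their deposited values in the 2 stages: 100 FPKM or more in eggs, and a log2(FPKM + 1) value in larvae lower by 4 or more, a difference of -4 or less. FPKM relates the fragments of a transcript to its length and to the mapped fragments of the library, so it is a share and not an amount. A component is the unit that the assembly treats as a gene. The table lists 57962 of them, and 577 (0.995%) met the fold limit at any egg level. Among the 1227 components that reached 100 FPKM in eggs, the 179 were 14.6%. Both limits use the stage values themselves, so the low larval levels that follow are a description and no finding of the comparison.

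The material was larvae collected at 8 hours post-fertilization (hpf), the progeny of 63 adult pairs, set against unfertilized eggs spawned by 46 females. All animals descended from a single founding pair and were kept at 20 °C, where they mature and spawn at day 5, and the labels name no mutation or treatment in either stage. Both were whole, so each value averages over every cell of a larva or over whole eggs. Polyadenylated RNA was read in strand-specific paired-end libraries. The labels list 1 sample per stage and the design text speaks of 2 biological replicates, while the table holds 1 column per stage, treated here as the authors' mean. No replicate value, error or read depth comes with it, so no test was possible, and every difference is one between 2 deposited values.

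An egg is stocked by the mother with RNA made during oogenesis, and this store directs development until the embryo transcribes its own genes. Animal embryos then remove much of the store, a step of the maternal-to-zygotic transition that in well-studied species involves shortening of the poly(A) tail followed by decay of the message. Selection with oligo dT captures RNA by that tail, and tail length was not measured in these samples. Because FPKM is a share, a loss of molecules and a gain of other RNA in larvae were not separated, and neither was tested. Values of whole larvae do not give which cells held what remained.

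The component identifiers are not paired with gene names: 0 of them matched any of 17178 genes that RefSeq lists for assembly OKI2018_I68_1.0. Only the text of the identifiers was compared and no sequence was, so a component can still correspond to a listed gene. The components are therefore described by identifier, level and assembly features, with no function or sequence attached. Several components can be pieces, alleles or close copies of 1 gene.

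The 179 components made up 10.6% of all egg FPKM and 0.153% of all larval FPKM. Their summed level was 1944 FPKM in larvae, against 122388 FPKM in eggs. The median component was at 5.73 FPKM in larvae, with quartiles of 1.41 and 10.8 FPKM, against 237 FPKM in eggs, with quartiles of 151 and 454 FPKM. The 2 ranges overlapped, from 0 to 288 FPKM in larvae and from 100.4 to 26658 FPKM in eggs, because a few of the most abundant egg transcripts kept a larval level above the egg level of the least abundant. The median larval level was 2.16% of the egg level of the same component. It was 26.2% for the other 1048 components of 100 FPKM or more in eggs.

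**Figure D1:**
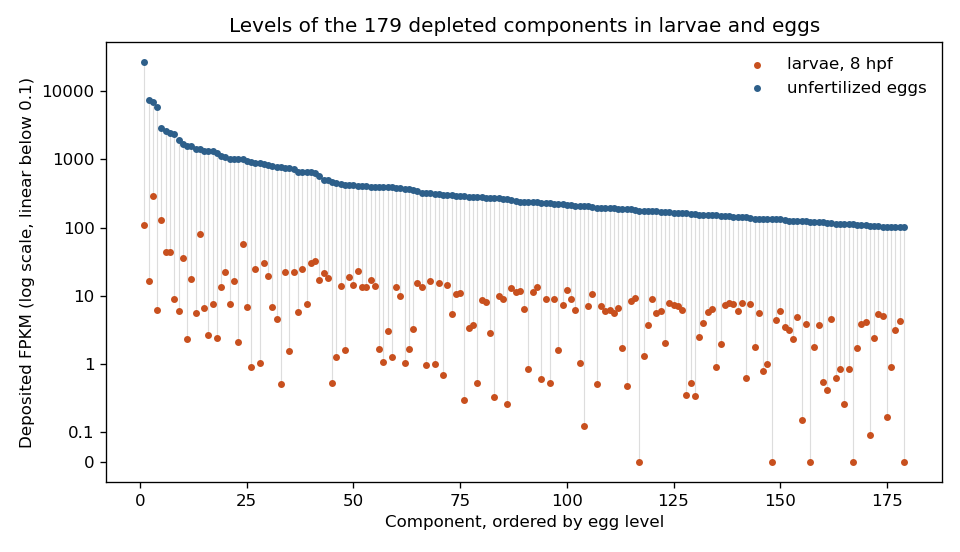
Deposited FPKM in larvae (orange) and in unfertilized eggs (blue) for each of the 179 components, ordered along the horizontal axis by egg level; the vertical axis is logarithmic and turns linear below 0.1 FPKM. Larval levels scatter from 0 to 288 FPKM under a smooth decline of egg levels from 26658 to 100.4 FPKM, and 5 components are listed at 0 in larvae.

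The place of these components in the order of abundance also differed between stages. The orders are not on a common scale, because more components were above 0 in larvae. Components listed at 0 took rank 14661 in eggs and rank 32995 in larvae. In eggs, 6 of the 179 were among the 100 most abundant components and 157 among the 1000 most abundant, with a median rank of 468. In larvae, none (0) was among the 100 most abundant and 3 were among the 1000 most abundant, with a median rank of 18117. The rule bounds these places. Its egg limit kept every egg rank at 1227 or better. Its fold limit alone kept all 179 out of the 100 most abundant in larvae, and most of them out of the 1000 most abundant. As deposited, 174 of the 179 were above 0 in larvae and 141 had 1 FPKM or more: 94 lay at 1 to 10 FPKM, 44 at 10 to 100 FPKM and 3 at 100 FPKM or more. The remaining 38 (21.2%) were below 1 FPKM, and 5 of these were listed at 0. The number of the 179 below 1 FPKM depended on the scaling. It was 100 after upper-quartile scaling, 56 after quantile normalization and 44 after rescaling both columns to an equal sum. With trimmed mean scaling it was 24 when set by components of 1 FPKM or more in both stages. It was 45 when set by all components above 0 in both. The lowest larval level of the other 1048 egg components of 100 FPKM or more was 6.31 FPKM, and the fold limit keeps much lower levels out of that group.

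The egg signal of the 179 was carried by few components. The most abundant, comp16109_c0, was at 111 FPKM in larvae, against 26658 FPKM in eggs, where it ranked first of all components. It alone held 21.8% of the summed egg level of the 179, and without it they made up 8.27% of all egg FPKM. Next was comp5026_c0, at 16.3 FPKM in larvae and 7405 FPKM in eggs. The 5 most abundant held 40.7% of the summed egg level and the 10 most abundant 49.7%.

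The most abundant components differed widely in what remained of them. In larvae comp5110_c1 kept 288 FPKM, the highest larval level of the 179, against 6945 FPKM in eggs (difference -4.59). By contrast, comp28019_c2 was at 6.11 FPKM in larvae, against 5881 FPKM in eggs (-9.69). These 2 had similar egg levels, and their larval levels were 4.14% and 0.104% of them. A like pair lay further down. The larval level of comp11050_c0 was 44.1 FPKM, against 2610 FPKM in eggs (-5.86). That of comp28498_c0 was 9.07 FPKM, against 2342 FPKM in eggs (-7.86). Between them in egg level, comp28473_c0 had 43.4 FPKM in larvae and 2420 FPKM in eggs. The remaining one of the 8 most abundant, comp11048_c0, had 128 FPKM in larvae and 2919 FPKM in eggs (-4.50), so its larval level was higher than that of comp16109_c0 although its egg level was far lower.

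The 8 largest differences came from components of 763 FPKM or more in eggs. After comp28019_c2 came comp28545_c0, at 0.505 FPKM in larvae and 763 FPKM in eggs (-8.99). Then followed comp28538_c0, at 0.910 FPKM in larvae and 905 FPKM in eggs (-8.89), and comp22711_c1, at 2.35 FPKM in larvae and 1581 FPKM in eggs (-8.89). The last of these was made of 7 assembled transcripts, while most of the 179 had 1. Close behind was comp24024_c0, at 1.04 FPKM in larvae and 881 FPKM in eggs (-8.76), then comp5026_c0 (-8.74). At a lower egg level than comp5026_c0, comp15032_c0 had 2.39 FPKM in larvae and 1234 FPKM in eggs (-8.51), and comp16156_c0 had 2.68 FPKM in larvae and 1321 FPKM in eggs (-8.49). All 8 were at 0.221% of their egg level or less. That the largest differences lay at high egg levels follows in part from the scale: with 1 FPKM added to each value, a component of 100 FPKM in eggs cannot go below -6.66 even at 0 in larvae. The order depended on the pseudocount. At 0.1 FPKM, 2 of these 8 remained among the 8 largest differences, comp28545_c0 and comp28019_c2, and comp16297_c0, listed at 0 in larvae, came first. At 10 FPKM, 5 of the 8 remained.

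The 5 components listed at 0 in larvae were named after their values were seen. All had modest egg levels, at 178 FPKM for comp16297_c0, 132 FPKM for comp28893_c0, 122 FPKM for comp5659_c0, 112 FPKM for comp36984_c0 and 100.4 FPKM for comp21560_c0. No component of 200 FPKM or more in eggs was listed at 0 in larvae. Without read counts, a value of 0 gives no upper limit on the true level.

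At the other end, 3 components had more than 100 FPKM in larvae, comp5110_c1, comp11048_c0 and comp16109_c0. The next larval levels were those of comp19542_c0, at 79.2 FPKM in larvae and 1414 FPKM in eggs (-4.14), and of comp22368_c1, at 57.7 FPKM in larvae and 1012 FPKM in eggs (-4.11). Both lay close to the fold limit, at 5.60% and 5.70% of their egg level. Of the 5 highest larval levels, that of comp16109_c0 was the sole one below 1% of its egg level, at 0.415%.

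The fold limit cut through a continuous range of values. Just inside it were comp24710_c0, at 7.50 FPKM in larvae and 137 FPKM in eggs (-4.02), comp21695_c0, at 7.80 FPKM in larvae and 144 FPKM in eggs (-4.04), and comp26712_c1, at 13.4 FPKM in larvae and 237 FPKM in eggs (-4.05). Just outside were comp18149_c0, at 7.84 FPKM in larvae and 138 FPKM in eggs (-3.98), comp19891_c0, at 9.66 FPKM in larvae and 167 FPKM in eggs (-3.97), and comp27728_c0, at 14.4 FPKM in larvae and 241 FPKM in eggs (-3.97). These 6 components were picked for their nearness to the limit, so their differences were alike. Their levels ranged from 7.50 to 14.4 FPKM in larvae and from 137 to 241 FPKM in eggs. Those inside and those outside overlapped in both stages. At the egg limit, the components just inside were comp21560_c0, at 0 FPKM in larvae and 100.4 FPKM in eggs, comp25438_c0, at 4.21 FPKM in larvae and 100.7 FPKM in eggs, and comp19537_c0, at 3.15 FPKM in larvae and 101 FPKM in eggs. Just outside was comp20641_c0, at 1.17 FPKM in larvae and 99.9 FPKM in eggs, followed by comp41193_c0, comp42748_c0 and comp43629_c0, each listed at 0 in larvae and at 99.7 FPKM in eggs. In all, 398 components met the fold limit below 100 FPKM in eggs, and 315 of those were listed at 0 in larvae.

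The 179 components did not thin out evenly away from the limit. Between -5 and -4, 84 of them lay close together as the edge of the main body of egg components, whose bins of 0.5 held 70 components from -4 to -3.5 and 191 from -2.5 to -2. Only 10 lay between -5.5 and -5. Below that, as far as -8, the numbers did not go on shrinking. There were 13 between -6 and -5.5, 18 between -6.5 and -6, and 15 between -7 and -6.5. Another 15 lay between -7.5 and -7, and 12 between -8 and -7.5. Further down they fell, to 5 between -8.5 and -8 and 6 between -9 and -8.5. The last bins held 0 between -9.5 and -9 and 1 between -10 and -9.5. In all, 85 components (47.5%) had a difference of -5.5 or less. The low count between -5.5 and -5 depended on the pseudocount. At 2 FPKM that bin held 15 components, with 23 in the bin below it and 32 in the bin above. At 0.5 FPKM it held 13, with 12 below and 41 above, and at 0.1 FPKM it held 18, with 9 below and 43 above, so that at both there was a step and no gap. With no pseudocount and the 5 zeros left out, there was likewise only a step: 42 components in each bin from -5 to -4, 19 from -5.5 to -5, and 4 to 13 in each bin from -9.5 to -5.5.

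**Figure D2:**
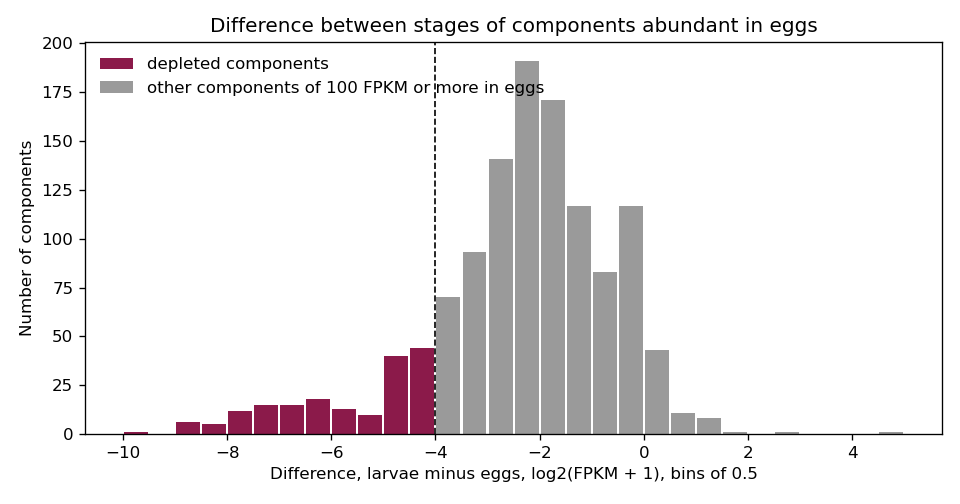
Number of components of 100 FPKM or more in eggs in each bin of 0.5 of the difference in log2(FPKM + 1), larvae minus eggs; the 179 depleted components are in dark red, the other 1048 in grey, and the dashed line marks the limit of -4. The grey body is highest from -2.5 to -2, with 191 components. A low tail extends from -5.5 to -9.69, with 12 to 18 components per bin down to -8 and 6 or fewer per bin below that.

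The 85 components at -5.5 or less and the 84 above -5 overlapped in egg level and differed in larval level relative to it, which the split itself fixes. The split was made after the values were seen. The 85 had a median of 1.25 FPKM in larvae and 299 FPKM in eggs, and all 38 components below 1 FPKM in larvae were among them. The 84 had a median of 8.50 FPKM in larvae and 213 FPKM in eggs. Median larval levels were 0.367% of the egg level for the 85 and 4.02% for the 84. The 85 held 70.0% of the summed egg level of the 179 and 24.3% of their summed larval level. The 84 held 26.5% of the egg level and 70.0% of the larval level. Most of the larval signal of the 179 thus came from components between -5 and -4, which a split by the difference favours. Among the 84 were 4 components of 1000 FPKM or more in eggs, such as comp5110_c1, at 288 FPKM in larvae.

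The share of egg components that met the fold limit varied with the egg level. It was 73 of 661 (11.0%) at 100 to 200 FPKM, 62 of 315 (19.7%) at 200 to 500 FPKM, 20 of 75 (26.7%) at 500 to 1000 FPKM and 24 of 176 (13.6%) at 1000 FPKM or more. The last class also held many components with almost the same level in larvae as in eggs. Median larval levels of the components that met the limit were 3.44, 7.71, 17.4 and 14.9 FPKM in the same order of classes, against 34.7, 65.1, 148 and 2585 FPKM for the others. Among the 24 at 1000 FPKM or more in eggs, 20 had a difference of -5.5 or less, none (0) lay between -5.5 and -5 and 4 lay above -5. In the class of 100 to 200 FPKM, where the scale leaves less room, the same counts were 29, 5 and 39.

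**Figure D3:**
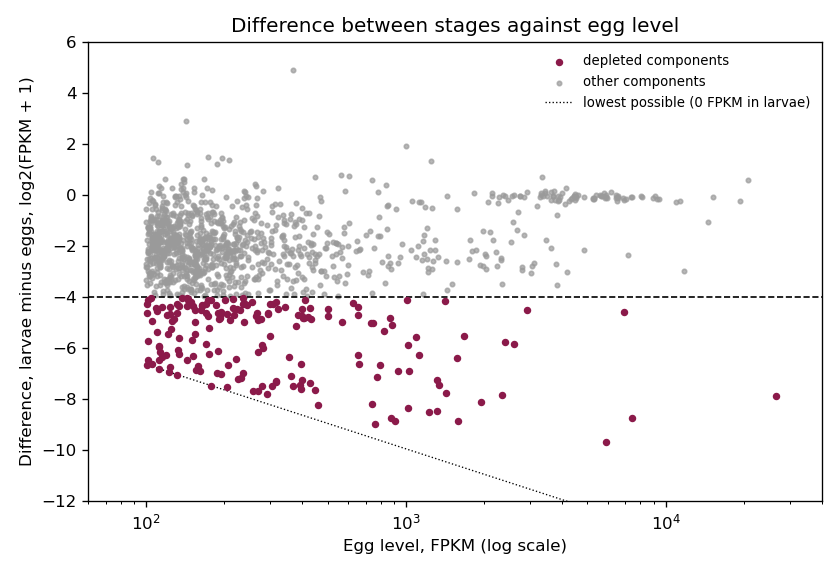
Difference in log2(FPKM + 1), larvae minus eggs, against egg level in FPKM (logarithmic axis) for the 1227 components that reached 100 FPKM in eggs; the 179 depleted components are in dark red, the dashed line is the limit of -4 and the dotted line the lowest difference that a component at 0 in larvae can have. At 1000 FPKM or more, 20 of the 24 depleted components lie at -5.5 or less.

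**Figure D4:**
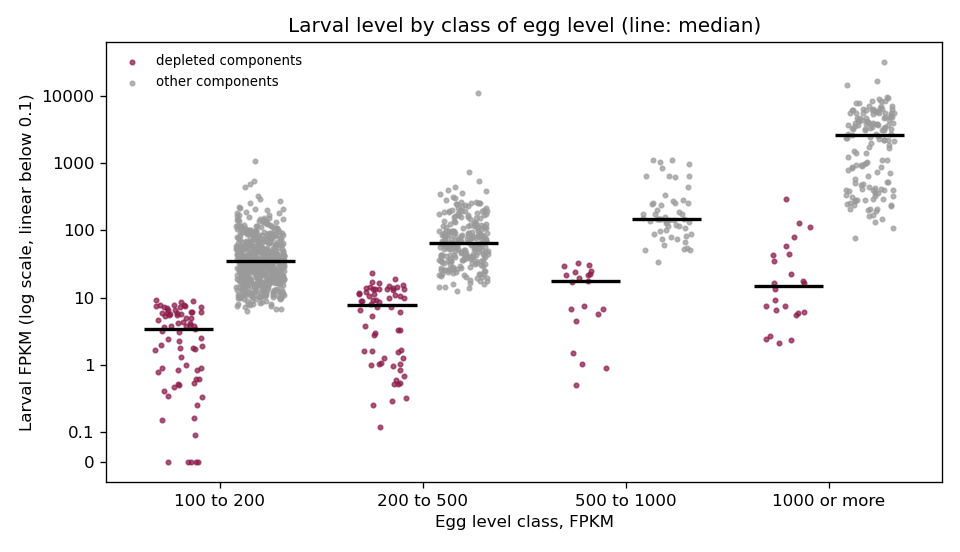
Larval FPKM (logarithmic axis, linear below 0.1 FPKM) by class of egg level for the depleted components (dark red) and the other components of 100 FPKM or more in eggs (grey); each point is 1 component and each black line a median. The medians of the depleted components are 3.44, 7.71, 17.4 and 14.9 FPKM from the lowest to the highest class.

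Within the 179, higher egg levels went with higher larval levels. Across these components Pearson's r of the log2(FPKM + 1) values was 0.56 and Spearman's rho 0.51. Both columns come from the same assembly and share its lengths, the fold limit caps the larval level of a component at a value that rises with its egg level, and components are not independent replicates, so the coefficients only describe this list.

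Most of the 179 were simple in the assembly, a feature that the selection did not use. A single transcript made up 152 of them (84.9%, 95% Wilson interval 78.9% to 89.4%), against 794 of the other 1048 (75.8%, interval 73.1% to 78.3%). The intervals cover counting error over components only. Components of 3 or more transcripts were 9 of the 179 (5.03%), against 133 of the other 1048 (12.7%). By the same counts, 16.1% of the 946 single-transcript egg components met the fold limit, 12.9% of the 139 with 2 transcripts and 6.34% of the 142 with 3 or more. The share of single transcripts was higher than among the others at 100 to 200 FPKM (79.5% against 70.6%), at 200 to 500 FPKM (88.7% against 80.2%) and at 500 to 1000 FPKM (90.0% against 80.0%), and near it at 1000 FPKM or more (87.5% against 86.8%). How the assembly splits transcripts is not given in the sources used here, and the part of the reads of each stage in it was not tested.

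The number in an identifier comes from the assembly as well, and the depleted components, like all components abundant in eggs, were unevenly spread over it. Numbers from 28000 to 28999 held 29 of the 179 (16.2%), against 110 of the other 1048 (10.5%), and 1123 of all 57962 components (1.94%). Of the 139 components in that block that reached 100 FPKM in eggs, 20.9% met the fold limit, against 13.8% of the 1088 outside it. That share was not particular to the block: it was 20.6% for numbers from 22000 to 22999 (13 of 63) and 41.7% for those from 6000 to 6999 (5 of 12). The 29 were also lower in larvae than the rest of the list: their median was 2.79 FPKM in larvae and 342 FPKM in eggs, while that of the other 150 was 5.87 FPKM in larvae and 227 FPKM in eggs. A difference of -5.5 or less was found for 21 of the 29 (72.4%), among them comp28019_c2, comp28545_c0, comp28538_c0 and comp28498_c0, and for 64 of the other 150 (42.7%). It was found for 8 of the 11 with numbers from 16000 to 16999. Nearly all components of the block were single transcripts, at 28 of the 29 and 131 of the 139 (94.2%), against 74.9% of those outside it. The block was picked after the numbers were seen, no test was made, and what the numbering follows is not given in the sources used here.

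**Figure D5:**
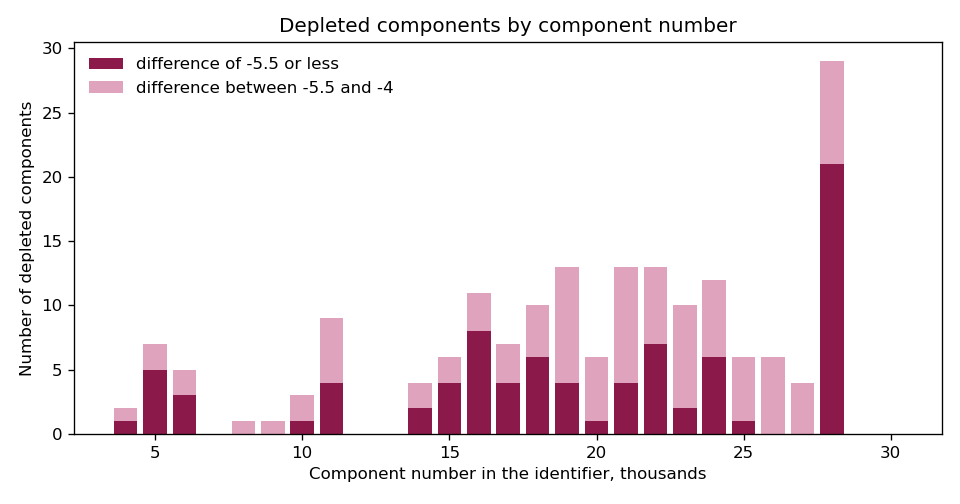
Number of depleted components per 1000 component numbers, with differences of -5.5 or less in dark red and those between -5.5 and -4 in pink; the axis, in steps of 1000 numbers, ends at 30999 and leaves out 1 component, comp36984_c0. The block from 28000 to 28999 holds 29 components, 21 of them at -5.5 or less, but it also holds 139 of the 1227 components that reached 100 FPKM in eggs; 3 blocks hold 13 depleted components each, among 63 to 90 such components.

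The 179 components bore 178 different component numbers. The single number with 2 depleted components was shared by comp21502_c0, at 7.31 FPKM in larvae and 219 FPKM in eggs (-4.73), and comp21502_c1, at 9.94 FPKM in larvae and 267 FPKM in eggs (-4.62). These 2 were alike in both stages. Of the 179, 28 shared their number with rows that did not meet the limits, 39 rows in all. Most of those rows were low, with 15 below 1 FPKM in eggs and 21 listed at 0 in larvae, 11 of which were at 0 in both stages. Of the 28 rows above 0 in either stage, 23 were lower in larvae than in eggs and 5 were higher. The same count was not made for rows beside other components, so it only describes these rows.

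A row of 100 FPKM or more in either stage stood beside 5 of the depleted components. For 2 of them it was also far lower in larvae, though it did not reach the fold limit. These were comp27664_c2, at 7.16 FPKM in larvae and 205 FPKM in eggs, beside comp27664_c1, at 8.02 FPKM in larvae and 134 FPKM in eggs (-3.91), and comp27541_c1, at 13.0 FPKM in larvae and 257 FPKM in eggs, beside comp27541_c0, at 10.6 FPKM in larvae and 123 FPKM in eggs (-3.41). For the other 3 the levels parted. Listed at 0 in larvae and at 100.4 FPKM in eggs, comp21560_c0 stood beside comp21560_c1, which had 17 transcripts and was at 2532 FPKM in larvae and 2560 FPKM in eggs. At 5.91 FPKM in larvae and 132 FPKM in eggs, comp15027_c0 stood beside comp15027_c1, at 6949 FPKM in larvae and 14558 FPKM in eggs (-1.07). The opposite direction was seen once: comp26256_c1 was at 6.45 FPKM in larvae and 151 FPKM in eggs, while comp26256_c0 was at 366 FPKM in larvae and 0.380 FPKM in eggs (8.05). Rows that share a number can share sequence, and how reads were divided between them was not tested.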

How the data were processed

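The deposited table holds, for each stage, 1 column of linear FPKM values that the authors made with RSEM, per the submitters' processing notes; the file's own name calls them log2, but they reach 26658 in eggs and include zeros. For its version, the assembler and any filters, nothing is given in the sources used here. Every value ends in 0 or 5 at the thousandths place (0 exceptions in larvae and 0 in eggs), as a mean of 2 values of 2 decimals would, so each column was taken as the authors' mean. Libraries had an insert of 200 bp and reads of 90 bp, per the labels' protocols. Depth is unknown, and 0 columns were unused.

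Differences are larvae minus eggs of log2(FPKM + 1), with a pseudocount of 1 FPKM, which understates changes of low components. Components were selected at 100 FPKM or more in eggs and -4 or less. The components, the lists and the split at -5.5 were chosen with earlier results of these data known. Named components were the 8 highest in eggs, the 8 largest differences, the 5 highest in larvae, the 3 nearest each limit on either side (4 outside the egg limit, through a tie), and those sharing a number with another of the 179 or with a row of 100 FPKM or more. Alternatives were other pseudocounts, limits and scalings, a filter at 1 FPKM, and summed subcomponents. The trimmed mean of log ratios dropped 30% of ratios and 5% of abundances at each end. The code was tested on simulated data. Figures were drawn with matplotlib 3.10.9; the values were computed with pandas 2.3.3 and numpy 2.4.6 under Python 3.11.15, and intervals with scipy 1.17.1.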

Additional observations from a re-analysis of the deposited data

How the results depend on the processing

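No paired analysis was possible because the table gives 1 mean per stage and no replicate numbers, and no replicate could be left out. The count of 179 was 82 with a pseudocount of 10 FPKM, 299 and 106 at egg limits of 50 and 200 FPKM, 342 and 95 at fold limits of 3 and 5, 112 after trimmed mean scaling over components of 1 FPKM or more in both stages, and 864 after upper-quartile scaling. It lay between 141 and 250 under the other 6 settings. Similar counts can hide a change of components. Of the 179, 168 were among the 250 after quantile normalization. After rescaling both columns to an equal sum, 160 were among 175. Trimmed mean scaling raised every larval value 1.80-fold, but multiplied it by 0.738 when set by all components above 0 in both stages, a choice made after seeing the data that gave 233 components. Upper-quartile scaling lowered larval values 6.44-fold. The median difference of -5.27 of the 179 was -5.50 and -3.91 with pseudocounts of 0.1 and 10 FPKM, and -4.52 after trimmed mean (-5.56 over components above 0), -6.91 after upper-quartile, -5.79 after quantile and -5.29 after rescaling both columns to an equal sum. That of all 1227 egg components moved from -2.14 to -1.31, -2.57, -4.64, -2.13 and -2.27 under the same scalings. Median larval levels of the 179 were 10.3, 4.23, 0.889, 2.87 and 4.51 FPKM. The number below 1 FPKM in larvae was 38 as deposited, 24 with trimmed mean scaling and 100 with upper-quartile scaling. The share of single transcripts stayed within its interval under the 4 other limits. Those lists contain the 179 or are drawn from them, so this is no independent check. The share among the other components was not recomputed. The near-equal comp21560_c1 turned to 0.83 after trimmed mean and 0.24 after quantile scaling. With no replicates and unknown depth, larval levels below 1 FPKM have no known precision.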
